A study of Mus musculus with 71 samples.

Results

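The genes studied here encode the core proteins that make microRNAs and let them silence messages. The members were chosen by gene name for their role, with earlier results of these data known, and number 10 of the 21527 genes in the data: Drosha, Dgcr8, Xpo5, Dicer1, Ago1, Ago2, Ago3, Ago4, Tnrc6a and Tnrc6b. They were followed by SLAM-seq, in which 4-thiouridine (s4U), a uridine analogue, is built into new RNA and later read as T-to-C conversions, so that loss of conversions after a uridine chase reports RNA decay. Male mouse embryonic stem cells (mESC), pluripotent cells kept in culture with inhibitors of differentiation and LIF, received 100 µM s4U for 24 h and were then chased with uridine.

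Cells were treated with 20 µM STM2457, an inhibitor of the m6A methyltransferase Mettl3, or with its solvent DMSO as control. Treatment began 6 h before the chase and went on through it, so chase time and treatment time run together and cannot be told apart. RNA was collected at 0, 1, 1.5, 2.3, 3.5, 5.3, 8 and 12 h of chase. The sample labels number these time points, and the hours were taken from the description of the study. There were 4 libraries for each treatment at each time, with the exception of STM2457 at 3.5 h, which had 3. Cells without s4U gave a further 4 libraries per treatment, and their hours of treatment are not given in the sources used here. All 71 libraries came from 1 kind of cell in 18 groups, and the study's methods call its replicates biological and independent, while the labels name no separate cultures. The p-values measure the spread between these samples.

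MicroRNAs are cut out of long primary transcripts in the nucleus by the Microprocessor, in which the RNase III enzyme Drosha acts with its RNA-binding partner Dgcr8. Exportin-5, the product of Xpo5, carries the hairpin to the cytoplasm, where Dicer, the product of Dicer1, trims it to a duplex. One strand is loaded into an Argonaute protein (Ago1 to Ago4), and GW182 proteins, among them those of Tnrc6a and Tnrc6b, link Argonaute to deadenylation and decay of the target. In mESC the pathway is known for its part in leaving the pluripotent state. The Microprocessor is also known to cut hairpins within the Dgcr8 message itself.

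Those hairpins are shown first because Dgcr8 was the member called at single time points below. On GRCm38, Dgcr8 lies on the minus strand of chromosome 16 from 18253948 to 18289246. The RefSeq hairpin Mir1306, at chr16:18284239-18284317, overlapped the coding exon sequence of Dgcr8 on the same strand. A second RefSeq hairpin, Gm24572, which gives miR-3618, lay in an exon 5′ of the coding sequence, at chr16:18284550-18284637. The mature arms listed by RefSeq on GRCm38.p6 are printed 5′ to 3′ with the seed, bases 2 to 8, in capitals, and the 4 seeds differ.
miR-1306-5p: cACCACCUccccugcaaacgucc
miR-1306-3p: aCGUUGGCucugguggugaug
miR-3618-5p: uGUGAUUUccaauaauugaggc
miR-3618-3p: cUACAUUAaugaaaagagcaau
The libraries count 3′ ends of polyadenylated messages and do not measure these microRNAs. RefSeq also placed Mir5113 in the 3′ UTR of Tnrc6b and Mir693 in an intron of Xpo5.

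Library sizes ran from 4539726 to 7368244 reads with a median of 5726508. Of 9 mESC markers, 8 were in the tables, and Sox2 was not among them. Their summed level was 1141 to 1926 CPM (reads of a gene scaled to the library total) in the DMSO libraries and 1359 to 2040 in the STM2457 libraries. Most of it came from Pou5f1, Tdgf1 and Nanog (medians 822, 252 and 227 CPM), while Klf4 had a median of only 2.71 CPM. The 4 fibroblast markers summed to at most 2.32 CPM in any library. The 3 markers of differentiated lineages in the tables summed to 8.07 to 74.5 CPM in DMSO and 5.96 to 44.04 in STM2457, most of it from T (median 14.8 CPM), while Gata6 and Sox17 had medians of 0.18 and 0. The part of such cells in the results below was not tested. No pair of replicates among the 105 pairs was identical, and the closest pair differed by 2.80 times the variance expected from sampling. Levels below are CPM after TMM normalization, which scales each library by a trimmed mean over genes, and log2 fold changes are STM2457 over DMSO. Such levels are relative to the other genes of a library, so a shift shared by most messages would not show. The study's methods warn that scaling to total transcript abundance can bias results when a treatment affects most genes. For its RNA-seq the study used spike-ins or genes without m6A sites as reference, and neither was used here.

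Ago4 could not be compared. It had 48 reads in all, 18 in 36 DMSO libraries and 30 in 35 STM2457 libraries, and 55 of the 71 libraries had no read. A count of 0 allows up to 3 reads, which is 0.407 to 0.661 CPM at these depths, for counting error only. The other 9 members passed the filter on low counts, with medians per library from 48 reads for Tnrc6b to 1212 reads for Drosha. Reads that map to more than one place made up 11.04% of those of Ago2 and at most 0.843% of those of any other member, so Ago2 is the member with most such reads.

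The first comparison asks whether the level of these messages differed between STM2457 and DMSO over the 8 chase times together. Over these times Drosha, Dgcr8, Ago1 and Tnrc6a were lower in STM2457, by edgeR's quasi-likelihood test at an adjusted p under 0.01 over 12659 genes. No member was higher, and all 9 estimates were below 0, with a median log2 fold change of −0.15 beside −0.009 for all genes tested. Thus 4 of 9 members were called lower, where 12.6% of all genes were called lower and 13.9% higher. In bulk samples such as these, fewer cells of a type and less RNA per cell cannot be told apart.

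**Figure D1:**
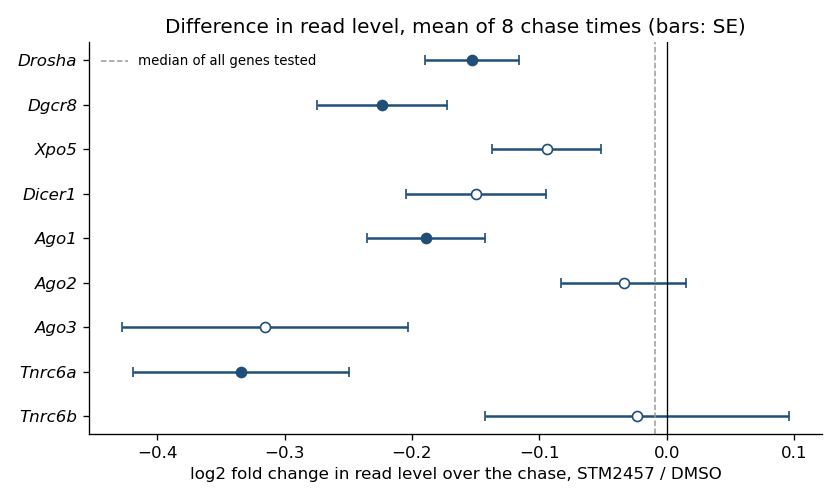
The log2 fold change in read level, STM2457 over DMSO, averaged over 8 chase times is shown for 9 genes, with bars for the SE, filled points for an adjusted p under 0.01 and a dashed line at the median of all genes tested. All 9 points lie below 0, from −0.33 for Tnrc6a to −0.02 for Tnrc6b, and 4 are filled.

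In the Microprocessor, Drosha was read at 178 to 260 CPM in the 32 labelled DMSO libraries, with a median of 215, and at 128 to 252 CPM in the 31 STM2457 libraries, with a median of 192. The ranges overlapped, and 7 of 8 time points had the lower mean in STM2457. The log2 fold change of Drosha was −0.15 (SE 0.037, edgeR adjusted p = 0.00063), or 0.900 times the DMSO level. Dgcr8, its partner, was read at 24.2 to 62.5 CPM in DMSO with a median of 46.2, and at 26.99 to 49.2 CPM in STM2457 with a median of 39.4. Its log2 fold change was −0.22 (SE 0.051, edgeR adjusted p = 0.00029), or 0.856 times the DMSO level, and the mean was lower at 6 of 8 time points. The ranges of Dgcr8 overlapped over the whole chase as well.

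Xpo5, the export factor, and Dicer1, the cytoplasmic nuclease, did not pass the threshold. Xpo5 was read at 71.8 to 111 CPM in DMSO and 67.4 to 113 CPM in STM2457, with medians of 95.5 and 86.8 and a log2 fold change of −0.094 (SE 0.043, edgeR adjusted p = 0.074). Dicer1 was read at 80.1 to 183 CPM in DMSO and 66.1 to 194 CPM in STM2457, with medians of 103 and 93.7. Its log2 fold change was −0.15 (SE 0.055, edgeR adjusted p = 0.026), as large as that of Drosha but with a wider error.

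Among the Argonautes, Ago1 was read at 45.1 to 89.3 CPM in DMSO with a median of 64.98, and at 37.8 to 71.9 CPM in STM2457 with a median of 57.2. Its log2 fold change was −0.19 (SE 0.046, edgeR adjusted p = 0.00071). The Ago1 libraries of the 2 treatments did not overlap at 1.5, 5.3 and 8 h, with STM2457 below DMSO each time. Ago2, the Argonaute that can itself cut a fully paired target, was read at medians of 113 and 108 CPM in DMSO and STM2457, with a log2 fold change of −0.034 (SE 0.049, edgeR adjusted p = 0.63). For Ago3 the log2 fold change was −0.32 (SE 0.11, edgeR adjusted p = 0.021), at medians of only 10.9 and 7.64 CPM. The mean of Ago3 was lower in STM2457 at 8 of 8 time points although it did not pass the threshold.

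Of the GW182 genes, Tnrc6a was read at 5.08 to 40.2 CPM in DMSO with a median of 20.8, and at 8.76 to 28.5 CPM in STM2457 with a median of 15.1. Its log2 fold change was −0.33 (SE 0.085, edgeR adjusted p = 0.0011), or 0.793 times the DMSO level. Tnrc6b was read at medians of 8.35 and 7.43 CPM, with a log2 fold change of −0.024 (SE 0.12, edgeR adjusted p = 0.91) that turned positive without replicate 2 (0.059), without replicate 3 (0.017) and without the 1.5 h libraries (0.041).

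The 4 calls did not all hold when a replicate number was left out of every group. Without replicate 3 none of the 4 was called, with edgeR adjusted p-values of 0.016 for Drosha, 0.015 for Dgcr8, 0.013 for Ago1 and 0.019 for Tnrc6a. Drosha was also lost without replicate 4 (0.027), Ago1 without replicate 2 (0.017) and Tnrc6a without replicate 1 (0.019). The 4 genes stayed below 0 in each of these fits. All 4 were called without 0 h, without 12 h and without 1.5 h.

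The plot of levels by chase time shows that these averages hide a change with time, which the single time points address. At single time points Dgcr8 alone was called, at 1 h and in the unlabelled cells, among 9 members tested at each. The share of all genes called was 2.58% in the unlabelled cells, 1.68% at 0 h, 1.53% at 1 h, 8.18% at 1.5 h, 1.61% at 2.3 h, 1.30% at 3.5 h, 4.45% at 5.3 h, 2.34% at 8 h and 5.41% at 12 h. The number of members with an unadjusted p under 0.05 by edgeR ran from 0 at 8 and 12 h, where 16.6% and 21.9% of all genes had one, to 4 at 1 h, where 13.4% did. DESeq2 called the same number of members as edgeR at each time.

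**Figure D2:**
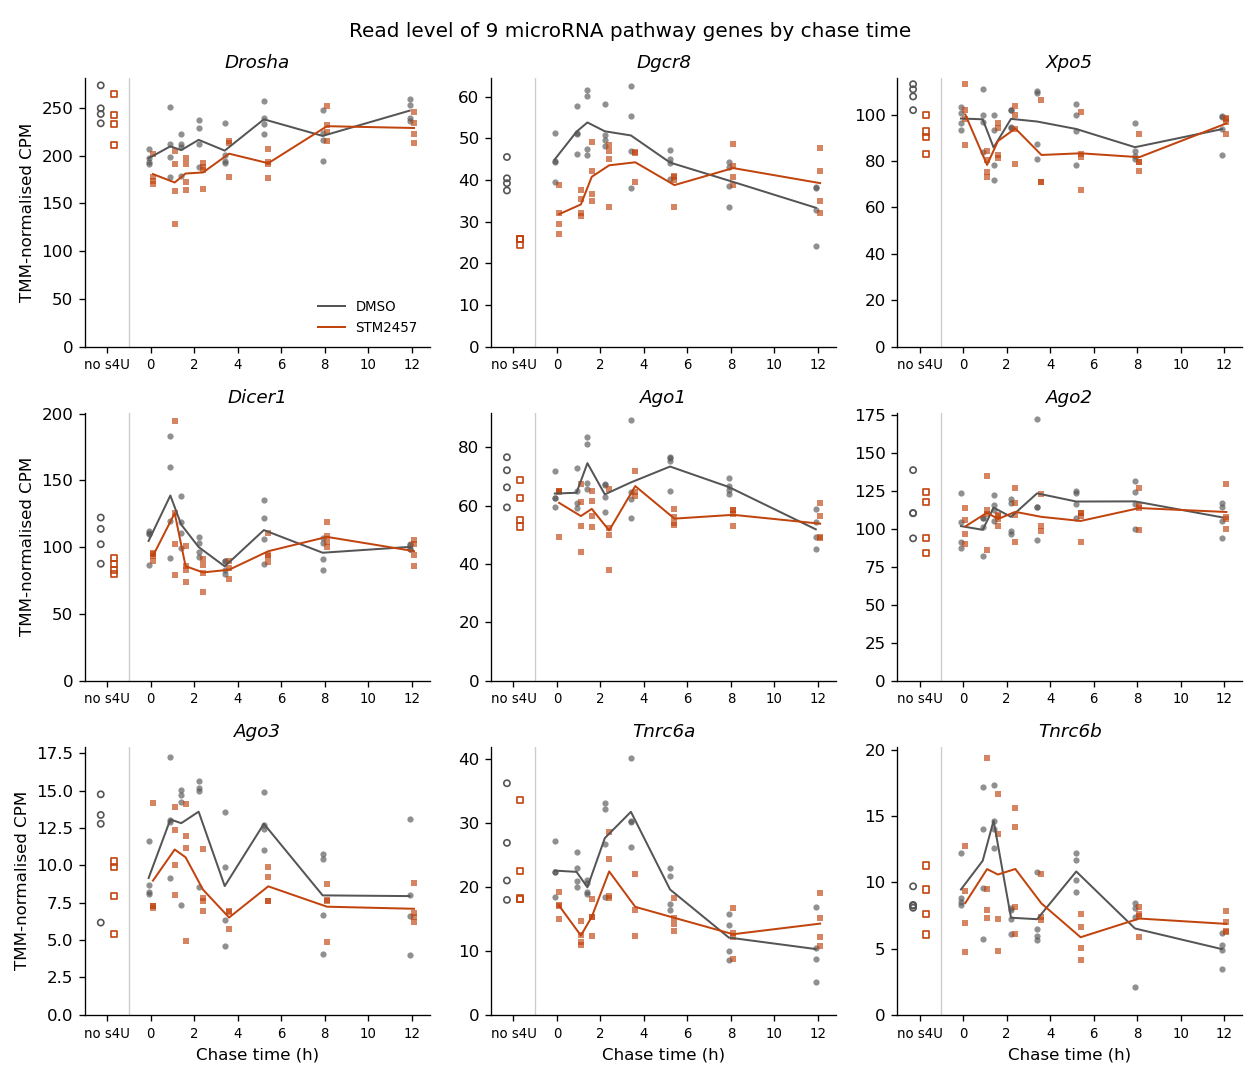
TMM-normalised CPM is plotted against chase time in hours for 9 genes, with 1 point per library (circles DMSO, squares STM2457), lines through the group means and open symbols for cells without s4U. Dgcr8 starts lower in STM2457 (mean 31.8 against 44.96 CPM at 0 h) and the lines cross by 8 h. Tnrc6a in DMSO goes from 22.6 CPM at 0 h to 31.8 at 3.5 h and 10.3 at 12 h.

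In unlabelled cells, Dgcr8 was read at 39.2, 37.5, 45.5 and 40.4 CPM in DMSO and at 24.4, 25.8, 25.8 and 25.8 CPM in STM2457. The groups did not overlap, and the log2 fold change was −0.68 (SE 0.15, edgeR adjusted p = 0.0017), or 0.626 times the DMSO level. The unlabelled libraries took no part in the average over the chase.
At 0 h the values of Dgcr8 were 44.4, 44.6, 39.6 and 51.2 CPM in DMSO and 26.99, 38.7, 32.1 and 29.4 CPM in STM2457. Again all STM2457 libraries lay below all DMSO libraries, with a log2 fold change of −0.50 (SE 0.14) that missed the threshold (edgeR adjusted p = 0.031).
At 1 h Dgcr8 was read at 51.4, 57.8, 51.03 and 46.2 CPM in DMSO and at 37.6, 32.1, 35.5 and 31.4 CPM in STM2457, again without overlap. The log2 fold change was −0.60 (SE 0.14, edgeR adjusted p = 0.007).

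The difference in Dgcr8 then shrank. Its log2 fold change was −0.40 at 1.5 h, −0.25 at 2.3 h, −0.20 at 3.5 h and −0.19 at 5.3 h. At 8 h it was 0.11 (SE 0.14), a value that was −0.026 without replicate 4, and at 12 h it was 0.24 (SE 0.14, edgeR adjusted p = 0.35). By 12 h the libraries overlapped, at 38.1, 32.8, 38.3 and 24.2 CPM in DMSO and 42.2, 47.7, 32.04 and 35.05 CPM in STM2457. The call at 1 h was lost with library totals in place of TMM (adjusted p = 0.012), without the filter (0.025), without each replicate in turn (0.026 to 0.12) and with the 8 libraries of that time fitted alone (0.31). The call in unlabelled cells was lost without replicate 1 (0.025), 2 (0.012) or 3 (0.033) and with its own 8 libraries alone (0.026). The direction was the same in all of these fits.

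For Tnrc6a no time point was called, although its groups did not overlap at 1, 1.5 and 3.5 h. At 1 h it was read at 22.9, 20.1, 25.5 and 20.96 CPM in DMSO and at 11.4, 10.99, 14.7 and 12.5 CPM in STM2457, a log2 fold change of −0.85 (SE 0.24, edgeR adjusted p = 0.029). At 3.5 h the values were 26.2, 30.4, 30.2 and 40.2 CPM in DMSO and 12.3, 22 and 16.4 CPM in the 3 STM2457 libraries. The log2 fold change there was −0.91 (SE 0.26, edgeR adjusted p = 0.031), and it was called when only the 7 libraries of 3.5 h were fitted. At 12 h the direction was the other way, with 10.48, 16.9, 8.72 and 5.08 CPM in DMSO, 10.7, 12.1, 15.1 and 19.1 CPM in STM2457 and a log2 fold change of 0.47 (SE 0.24, edgeR adjusted p = 0.25).

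Over the 9 members and 9 states, chase times and unlabelled cells, STM2457 lay wholly below DMSO in 14 of 81 cases and wholly above in 1. Over all genes tested these shares were 6.47% and 7.41%. At 5.3 h Drosha was read at 239.7, 222, 233 and 257 CPM in DMSO and at 177, 191, 207 and 193 CPM in STM2457, a log2 fold change of −0.31 (SE 0.10, edgeR adjusted p = 0.040). At the same time Ago1 was read at 65.1, 76.7, 75.3 and 76.5 CPM in DMSO and at 54, 53.2, 58.7 and 56.2 CPM in STM2457, a log2 fold change of −0.40 (SE 0.13, edgeR adjusted p = 0.033). STM2457 also lay wholly below DMSO for Xpo5 in unlabelled cells, for Dicer1 at 2.3 h and for Ago3 and Tnrc6b at 5.3 h. Tnrc6b at 12 h was the only case the other way, with 3.42, 6.21, 5.299 and 4.91 CPM in DMSO and 7.03, 7.82, 6.35 and 6.26 CPM in STM2457 (log2 fold change 0.46, SE 0.34, edgeR adjusted p = 0.47).

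The next comparison asks how each level changed with time in each treatment, as a slope in log2 per hour, and whether the slopes differed. In DMSO, Dgcr8, Tnrc6a and Tnrc6b fell and Drosha rose. The shares of all genes with a falling and a rising slope in DMSO were 13.5% and 12.4%. Tnrc6a fell at −0.11 log2 per hour (SE 0.0165, edgeR adjusted p = 1.3e-07), Tnrc6b at −0.093 (SE 0.023, adjusted p = 0.00092) and Dgcr8 at −0.051 (SE 0.0096, adjusted p = 1.8e-05). Group means of Tnrc6b in DMSO went from 9.46 CPM at 0 h to 14.7 at 1.5 h and 4.96 at 12 h. Those of Dgcr8 went from 44.96 CPM at 0 h to 53.8 at 1.5 h and 33.3 at 12 h. Those of Tnrc6a went from 22.6 CPM at 0 h to 31.8 at 3.5 h and 10.3 at 12 h. These falls were thus not straight lines. Drosha rose at 0.023 log2 per hour in DMSO (SE 0.0068, edgeR adjusted p = 0.0043), from 197 CPM at 0 h to 247 at 12 h. Its call was lost without replicate 1 (0.017), 2 (0.078) or 4 (0.040), without the filter (0.012) and without multimapping reads (0.017).

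In STM2457 only Drosha was called among the 9, and it rose at 0.036 log2 per hour (SE 0.0067, edgeR adjusted p = 3.5e-05), from 181 CPM at 0 h to 229 at 12 h. Here 7.05% of all genes fell and 6.01% rose. None of the members was called as falling in STM2457, either by edgeR or by DESeq2, and 3 of 9 had an unadjusted p under 0.05 in either direction, where 33.3% of all genes did. The slopes of Dgcr8 and Tnrc6a in STM2457 were 0.016 (SE 0.0094) and −0.023 (SE 0.016). With 12 h minus 0 h in place of the slope, 1 member was called lower in DMSO, Tnrc6a, and none in STM2457. The rise of Drosha was then no longer called in either treatment.

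**Figure D3:**
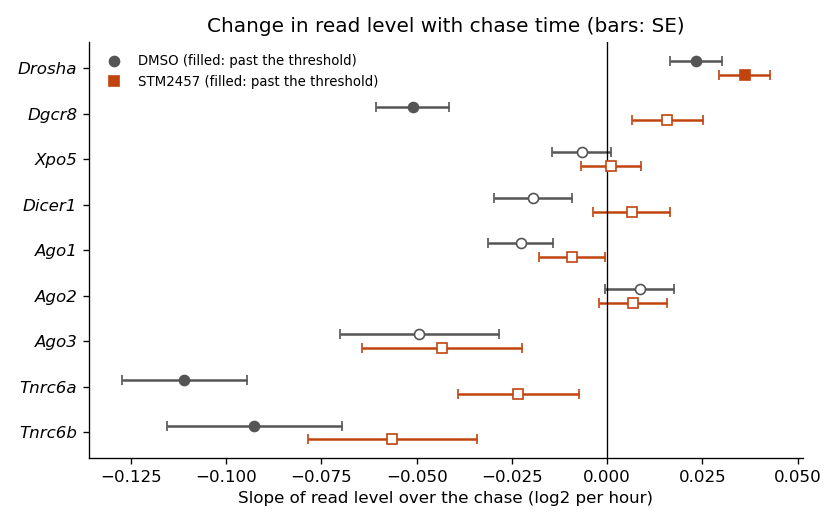
The slope of read level over the chase, in log2 per hour, is shown for 9 genes in DMSO (circles) and STM2457 (squares), with bars for the SE and filled symbols for an adjusted p under 0.01. Dgcr8 and Tnrc6a have the DMSO symbol well to the left of the STM2457 symbol, at −0.051 and −0.11 against 0.016 and −0.023.

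The difference between the slopes was itself tested. It was called for Dgcr8, at 0.067 log2 per hour (SE 0.013, edgeR adjusted p = 0.00036), and for Tnrc6a, at 0.088 (SE 0.022, adjusted p = 0.0071), both higher in STM2457. No member had the lower slope called in STM2457. Over all genes 2.43% had a slope called higher in STM2457 and 0.987% lower. The Dgcr8 difference was lost without replicate 4 (adjusted p = 0.011) and as 12 h minus 0 h (0.033), and that of Tnrc6a without replicate 3 (0.12), without replicate 4 (0.17) and as 12 h minus 0 h (0.18). Both stayed above 0 in those fits. The other 7 members had differences from −0.0016 for Ago2 to 0.036 for Tnrc6b, with none called.

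The label itself was examined by comparing 0 h with unlabelled cells. No member was called by edgeR in either treatment, where 0.513% of all genes were called in DMSO and 0.521% in STM2457. At an unadjusted p under 0.05 there was 1 member in DMSO and there were 2 in STM2457, beside 11.4% and 12.5% of all genes. DESeq2 called 1 member, Drosha, in STM2457. Drosha was read at 234, 274, 250 and 244 CPM without s4U and at 191, 194, 207 and 197 CPM after 24 h of it in DMSO, without overlap. Its log2 difference was −0.34 (SE 0.10, edgeR adjusted p = 0.078) in DMSO and −0.40 (SE 0.10, adjusted p = 0.030) in STM2457. Drosha therefore had lower values at 0 h, the first point of its rising slope, than in cells without s4U, and the part of the label in that slope was not tested.

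A wider list of 36 other microRNA pathway genes gave the setting for these members. All 36 were tested, and over the chase 10 were lower, 4 were higher and 22 were not called, with a median log2 fold change of −0.034. Over all genes tested, 12.6% were called lower and 13.9% higher. The number of the 36 called lower fell to 6 without replicate 2, without replicate 3 and without the 1.5 h libraries, and to 5 without replicate 4. Leaving out 1 replicate number also left 1045 to 1462 of all genes called lower, in place of 1594. Of those called, the 6 with the largest changes are named. Tnrc6c, the third GW182 gene, was read at 2.82 to 16.2 CPM in DMSO and 0.355 to 8.46 CPM in STM2457, with medians of 10.9 and 3.15. Its log2 fold change was −1.86 (SE 0.14, edgeR adjusted p = 4.5e-18), or 0.276 times the DMSO level, while its relatives Tnrc6a and Tnrc6b had −0.33 and −0.024 in the same fit.

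Ajuba, a LIM-domain protein that binds Argonaute, was higher in STM2457, at medians of 54.7 and 80.7 CPM in DMSO and STM2457 and a log2 fold change of 0.56 (SE 0.070, edgeR adjusted p = 7.4e-10). Eri1, an exonuclease that acts on small RNAs, was also higher, at 0.24 (SE 0.037). Eif4e2, a cap-binding protein that represses translation, had −0.33 (SE 0.048). Ran, the GTPase that exportins need, had −0.27 (SE 0.036), which was −0.14 and no longer called without multimapping reads. Ncbp1, the larger subunit of the nuclear cap-binding complex, had −0.24 (SE 0.038). These 4 genes had edgeR adjusted p-values from 7e-09 to 2.4e-07.

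Decay was read from the share of T positions converted. Conversion in the 9 members began at group means from 0.921% for Dgcr8 to 1.81% for Ago3 in DMSO and from 0.941% for Ago2 to 1.94% for Tnrc6b in STM2457, and was lost over the chase in both treatments. Whole libraries had 1.37% ± 0.067 of T positions converted in DMSO and 1.28% ± 0.073 in STM2457 at 0 h (SD, n = 4), against 0.0814% and 0.0829% without s4U. Drosha had 1.12, 1.41, 1.43 and 1.22% at 0 h in DMSO and 1.03, 1.65, 1.11 and 1.05% in STM2457, from at least 14573 covered T positions per library. Dgcr8 had 0.919, 0.800, 1.23 and 0.738% in DMSO and 0.654, 1.27, 1.31 and 1.38% in STM2457, from at least 2753 positions. The treatments overlapped for both genes. Xpo5 did not overlap at 0 h, with 1.46% ± 0.15 in DMSO and 1.03% ± 0.19 in STM2457 (SD, n = 4), and STM2457 also lay below DMSO for Tnrc6a at 1.5 h and Tnrc6b at 1 h but above it for Ago2 at 1.5 h. These are 3 cases below and 1 above among 72, where 2.68% and 1.61% of cases over all genes lay below and above. No member was called at 0 h by edgeR on the counts of conversions, and none had an unadjusted p under 0.05. Across the 11424 genes tested the share called was 0%, with 206 genes at an unadjusted p under 0.05.

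**Figure D4:**
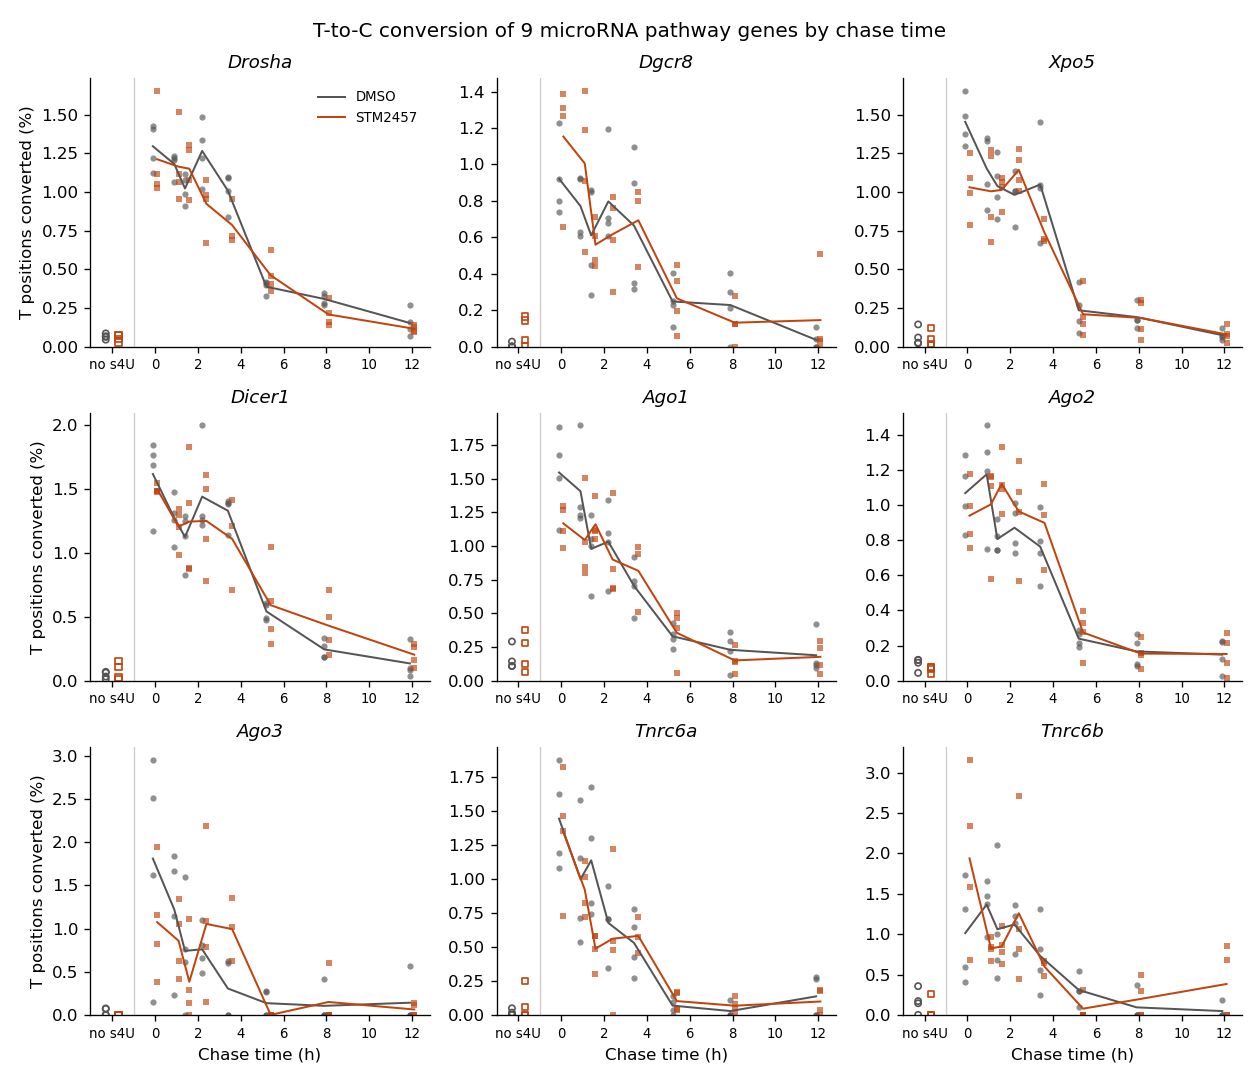
The share of T positions converted, in percent, is plotted against chase time in hours for 9 genes, with 1 point per library (circles DMSO, squares STM2457), lines through the group means and open symbols for cells without s4U. In all 9 panels the group means drop from 3.5 to 5.3 h, for Drosha in DMSO from 1.01% to 0.387%, and the points of the 2 treatments overlap at most times.

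The slope of conversion over the chase was negative and called in 9 of 9 members in both treatments, where 86.1% of all genes were called as falling in DMSO and 85.8% in STM2457. The slopes in DMSO ran from −0.28 log2 per hour for Drosha to −0.43 for Tnrc6b, and those in STM2457 from −0.22 for Tnrc6b to −0.37 for Ago3. Scaled by each library's own overall conversion rate, a falling slope means a loss faster than that of the library. By that measure 5 of 9 members were called as falling in DMSO and 2 of 9 in STM2457, where 45.68% and 40.04% of all genes were. The step between 3.5 and 5.3 h was shared with whole libraries, which went from 1.01% to 0.534% in DMSO and from 0.927% to 0.526% in STM2457. Drosha went from 1.01% ± 0.12 to 0.387% ± 0.043 in DMSO over that step (SD, n = 4), and Xpo5 from 1.05% ± 0.32 to 0.235% ± 0.14.

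No member had a slope of conversion that was called as different between treatments by edgeR, where 2.90% of all genes were called. Dicer1 had the only unadjusted p under 0.05 among the 9, with a difference of 0.078 log2 per hour (SE 0.033, adjusted p = 0.16), that is, a slower loss in STM2457. Dgcr8 had 0.080 (SE 0.072), which was −0.082 without replicate 4 and −0.097 without 12 h. The unlabelled background was not subtracted in these slopes, and for Dgcr8 it averaged 0.0068% in DMSO and 0.086% in STM2457. Tnrc6b had 0.21 (SE 0.11), which was −0.013 without 12 h. In Ago1 and Ago2 the difference was 0.0033 and −0.0001, too near 0 for the SE derived here to be given. Of 2133 genes with an unadjusted p under 0.05, 331 were called. In simulated data this test recovered 9% of genes given a slope difference of 0.1 log2 per hour and 48% at 0.3. Differences of the size seen in the members could therefore be missed.

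Half-lives were fitted to the conversion rates above the unlabelled background. Of the 10 members 8 gave a half-life in both treatments that passed the limits on coverage, range and residual, while Tnrc6b failed on its residual (0.353 in DMSO) and Ago4 had no fit. From replicate means, the half-life was longer in STM2457 for 5 of the 8 and shorter for 3. The direction turned in 2 of 11 other settings for Dicer1, without replicate 1 and without replicate 4, and in 1 of 11 for Drosha, without replicate 2. Over all genes, 56.7% of the 7408 kept had the longer half-life in STM2457. In the Microprocessor, Drosha had 4.54 h in DMSO and 4.15 h in STM2457, and Dgcr8 had 4.06 and 2.44 h. Xpo5 had 3.12 and 4.48 h, and Dicer1 had 4.203 and 4.58 h. Ago1 had 2.48 and 3.25 h, Ago2 3.66 and 5.50 h, Ago3 1.44 and 3.505 h, and Tnrc6a 2.14 and 1.53 h. The residual of Ago3 in STM2457 was 0.2875, near the limit of 0.3. For Dgcr8 and Tnrc6a the half-life was shorter in STM2457, while the slope difference of conversion was 0.080 and 0.047 log2 per hour, a slower loss. The 2 measures thus differed in direction for these genes, and neither difference was called.

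Replicate series, each made of the libraries with 1 replicate number, show how uncertain these values are. The labels do not say that a number marks the same culture at different times. Each series used the mean unlabelled rate of its treatment, and the fourth STM2457 series had no 3.5 h library. The series values and their p-values therefore depend on this grouping. For Dgcr8 the 4 series gave 2.96, 6.40, 1.86 and 6.93 h in DMSO and 6.45, 2.15, 1.12 and 2.04 h in STM2457. The series overlapped, with an exact two-sided permutation p of 0.371 in 4 against 4 series. Tnrc6a gave 2.44, 1.75, 2.67 and 1.73 h in DMSO and 2.10, 1.07, 1.54 and 1.298 h in STM2457, with an exact permutation p of 0.114. For Xpo5 they were 3.23, 2.55, 3.25 and 3.44 h in DMSO and 5.88, 4.43, 3.11 and 5.26 h in STM2457, which overlapped only through the third STM2457 series, with an exact permutation p of 0.114. The smallest exact p that 4 against 4 series can give is 0.0286.

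**Figure D5:**
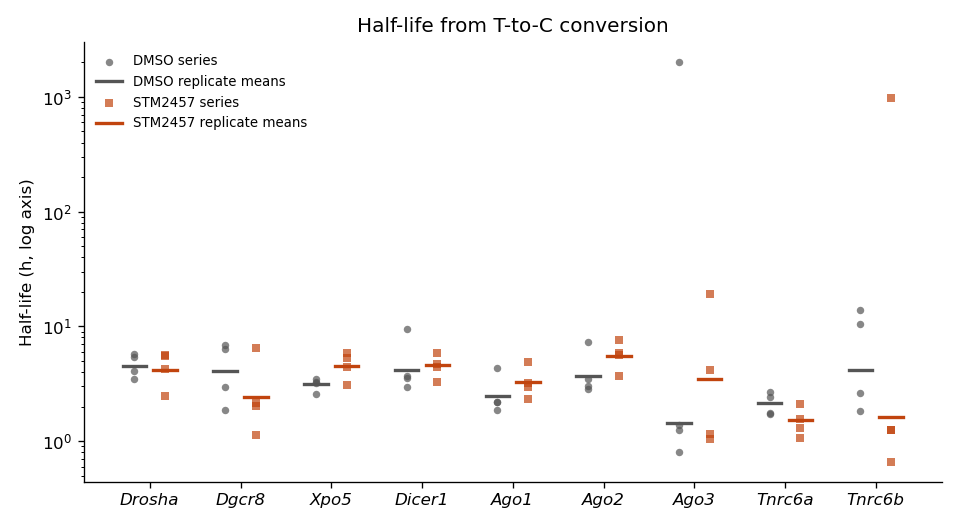
Half-lives in hours on a log axis are shown for 9 genes, with 1 point per replicate series (circles DMSO, squares STM2457) and a bar for the value from replicate means. The series of the 2 treatments overlap in every gene, and single series of Ago3 and Tnrc6b lie at 2000 h and 983 h.

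In limma on log2 half-lives, 7 members were tested and none was called at an adjusted p under 0.05, where 0% of 5772 genes were called and 405 had an unadjusted p under 0.05. The log2 differences and SE were 0.55 (0.26) for Xpo5, 0.53 (0.36) for Ago2, 0.38 (0.34) for Ago1, 0.026 (0.38) for Dicer1, −0.11 (0.32) for Drosha, −0.53 (0.29) for Tnrc6a and −0.73 (0.58) for Dgcr8. Adjusted p-values from limma ran from 0.72 for Xpo5 to 1 for Dicer1. Ago3 was left out, with a series above the limit of 18 h in each treatment. Its first DMSO series gave 2000 h, the top of the fitted range, against 0.802 to 1.38 h in the other 3. Its STM2457 series gave 4.19, 1.16, 19.01 and 1.04 h. The longer half-life of Ago3 in STM2457 from replicate means is therefore uncertain.

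The messages were also read for the 4 bases GGAC, on the transcript strand only. The study names GGACH, with H for A, C or U, as the motif mostly methylated. The count here also took GGAC followed by G, so it is not the motif density of the study. Coding sequences of the 10 members held 2.99 to 6.58 matches per kilobase with a median of 5.04, and 3′ UTRs held 0 to 5.28 with a median of 2.50. Over the 12069 tested genes with an annotated transcript, the medians were 4.96 and 2.79, and 97.8% of coding sequences and 83.2% of 3′ UTRs held at least 1 match. The medians of the members were thus near those of all genes. In coding sequences 6 of the 10 members lay above the median of all genes, and in 3′ UTRs 2 did. A match is no measured m6A site. For each of the 4 genes lower over the chase 1 match is printed, with GGAC in capitals, from GENCODE M21 on GRCm38. It is the match nearest the stop codon among those whose printed bases all lie in 1 exon.
Drosha, chr15:12926263-12926286, plus strand, coding: ctgaccctgaGGACagaagggaaa
Dgcr8, chr16:18255378-18255401, minus strand, 3′ UTR: tggcacatggGGACagctgtgact
Ago1, chr4:126439846-126439869, minus strand, coding: accacctggtGGACaaggaacatg
Tnrc6a, chr7:123192814-123192837, plus strand, coding: tccctctgggGGACcccacattat
These lie 307, 131, 126 and 127 bases from the stop codon. The 3′ UTR of Drosha, 168 bases long, held no match.

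Ago3, Ago1 and Ago4 lie beside each other on the minus strand of chromosome 4, at 126331704 to 126429556, 126435012 to 126468583 and 126489541 to 126533472. Within that cluster Ago1 had 25080 reads over all libraries, Ago3 had 3941 and Ago4 had 48. Reads were counted on windows of 258 bases for Ago1, 500 for Ago3 and 252 for Ago4. The annotated 3′ UTRs were 4491, 12742 and 3682 bases long. The positions of the windows are not given in the sources used here. Reads from 3′ ends outside them may be missing, so these counts do not rank the messages. The annotated 3′ UTR of Dgcr8 overlaps Trmt2a on the other strand and Gm49776 on its own strand, and that of Ago2 overlaps Chrac1 on the other strand. Whether the counts were made by strand is not given in the sources used here, so reads of these neighbours in Dgcr8 and Ago2 were not separated.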

How the data were processed

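Per the labels and the study's methods, 3′-end libraries (QuantSeq, forward) were checked with FastQC 0.11.8, mapped to GRCm38.p6 with SLAM-DUNK and counted on 3′ UTR windows collapsed per gene. The authors deposited whole-number counts of reads, multimapping reads, covered T positions and T-to-C conversions, without normalization. They also deposited the conversion rate as a fraction, which equalled conversions over covered positions (tolerance 1e-09) in 1528417 of 1528417 entries, and CPM, which was not used. From the counts, edgeR 4.0.16 (R 4.3.3) fitted 18 group means over 71 libraries with TMM, filterByExpr and Benjamini-Hochberg adjustment (adjusted p under 0.01); DESeq2 1.42.0 was an alternative. Conversions were fitted in the same way with covered T positions as offset, for genes with a mean coverage above 100. The unlabelled background was not subtracted in that fit, so its slopes understate the decay rate. Half-lives came from an exponential fixed at 1 at 0 h after subtracting the unlabelled mean (0.67 to 18 h, residual at most 0.3) and were tested with limma 3.58.1 (adjusted p under 0.05) and exact permutation (scipy, two-sided). The fits were tested on simulated data. The read test recovered 75% of genes changed 1.5-fold over the chase and 92% of those changed 2-fold. The members had 0.793 to 0.984 times the DMSO level over the chase. These are smaller changes than those simulated, so changes of this size could be missed. The conversion test recovered 9% of genes given a slope difference of 0.1 log2 per hour and 48% at 0.3. For half-lives, limma recovered 59% of genes changed 2-fold and 100% of those changed 4-fold. Every gene in that simulation had the same spread, the median over genes, so these shares do not hold for genes with a wider spread. The members and lists were chosen with earlier results of these data known. All members are named, and of the wider list the 6 called genes with the largest change. Printed SE from edgeR is the log2 value over the square root of F, which is unreliable for values near 0. Floors cover counting error only.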

Additional observations from a re-analysis of the deposited data

Results flagged for a closer look

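The slope of read level over the chase differed between treatments by the interaction test in edgeR for Dgcr8, by 0.067 log2 per hour, and for Tnrc6a, by 0.088, both higher in STM2457. The limits of both are given with the slopes in the report.

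In 13 of 153 groups of 4 libraries, 1 library stood apart from the other 3 by Dixon's test, which chance gives in about 1 in 20 groups. Of these, 3 were in Ago3 and 4 in Tnrc6b, the members with the fewest reads among those tested. Dgcr8 had 24.4 CPM in 1 unlabelled STM2457 library against 25.8 in the others, and 33.5 CPM in 1 library of STM2457 at 5.3 h against 39.9 to 40.98. Dicer1 had 86.6 CPM in 1 DMSO library at 0 h against 110 to 112. Ago1 had 49.1 CPM in 1 STM2457 library at 0 h against 64.7 to 64.9, and 65.1 CPM in 1 DMSO library at 5.3 h against 75.3 to 76.7. Ago2 had 91.3 CPM in 1 STM2457 library at 5.3 h against 108 to 111.

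Ago3 had 14.2 CPM in 1 STM2457 library at 0 h against 7.16 to 7.31, 7.33 CPM in 1 DMSO library at 1.5 h against 14.2 to 15.0, and 8.55 CPM in 1 DMSO library at 2.3 h against 14.9 to 15.7. In DMSO, single libraries of Tnrc6b had 9.70 CPM without s4U against 8.08 to 8.29, 12.2 CPM at 0 h against 8.27 to 8.84, 10.8 CPM at 3.5 h against 5.67 to 6.51, and 2.12 CPM at 8 h against 7.42 to 8.43.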

How the results depend on the processing

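Over the chase, leaving out 1 replicate number gave 0 to 3 members called lower in place of 4, 5 to 9 genes of the wider list in place of 10, and 1045 to 1462 of all genes in place of 1594. Without the 1.5 h libraries, an alternative chosen after seeing the data, the wider list had 6. Tnrc6b (−0.024) ran from −0.13 to 0.059 over the replicates left out and was 0.041 without 1.5 h. At single times the counts of members lower were 0 to 1 in unlabelled cells and 0 to 0 at 1 h over the replicates left out, 0 for both with the libraries of that time alone, 0 at 1 h with library totals or no filter, and 1 at 3.5 h with its own libraries alone. Tnrc6a ran from −0.47 to 0.16 in unlabelled cells and from −0.0656 to 0.28 at 8 h, and Dgcr8 from −0.026 to 0.19 at 8 h.

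With 12 h minus 0 h in place of the slope, members called were 1 lower and 0 higher in DMSO, 0 higher in STM2457 and 0 for the difference. The rise called in DMSO was 0 without the filter or multimapping reads and 0 to 1 over the replicates left out, and the difference 0 to 2. In DMSO, Xpo5 had 0.0046 with library totals and Ago2 ran from −0.0006 to 0.014. In STM2457, Xpo5 ran from −0.0064 to 0.0051 (−0.057 log2 for 12 h minus 0 h), Dicer1 from −0.0013 to 0.012 and Ago2 from −0.0042 to 0.014. For the difference, Xpo5 ran from −0.0021 to 0.016, Ago2 from −0.0037 to 0.0021 (0.0012 with labelled libraries, 0.05 log2 for 12 h minus 0 h) and Ago3 from −0.017 to 0.042 (−0.15 log2). DESeq2 called 1 member lower for the label in STM2457.

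For conversion relative to the library, 5 members fell in DMSO and 2 in STM2457. The slope difference ran from −0.082 to 0.20 for Dgcr8 (−0.097 without 12 h), from −0.012 to 0.044 for Xpo5, from −0.017 to 0.033 for Ago1 (−0.017 without 12 h), from −0.039 to 0.034 for Ago2 and from −0.20 to 0.35 for Ago3, and was −0.013 for Tnrc6b without 12 h. Ago2 had 0.019 relative to the library, 0.002 with the replicate block, 0.004 without 12 h and 0.001 without 3.5 h. The causes were not tested.

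Same-numbered libraries of the 2 treatments did not deviate together (mean correlation 0.0097 over 35 pairs, from −0.077 to 0.27), and 10 of 35 STM2457 libraries correlated best with their own number, so the numbers were not taken as pairs. With the replicate block 4 members were lower over the chase, as without it. Low read counts in the counting windows limit Ago4, Ago3 and Tnrc6b most.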
